A study of Mus musculus with 9 samples.

Results

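Tgif1 null mouse embryo fibroblasts (MEFs) at passage 3 were compared with wild type MEFs at passage 5, across every probe-set with a log2 signal above 4 on at least 3 of the 6 arrays of these 2 groups. This rule kept 18297 of the 45101 probe-sets of the Affymetrix mouse array, which represent 9951 of the 18033 genes that could be named. MEFs are primary fibroblasts grown out of embryos, and all cultures came from 13.5 day embryos of a mixed C57BL/6J x 129Sv/J background. They were grown in DMEM with 10% fetal bovine serum, and none was treated. The Tgif1 null group was Tgif1 -/- at passage 3 (3 arrays), and the wild type group carried both Tgif1 alleles at passage 5 (3 arrays). A further 3 arrays of wild type MEFs at passage 3 entered the fit for its estimate of the spread, and their levels are given beside some results. Each array was made from an independent culture. The sources used here do not say how many embryos gave the cultures, or whether both wild type groups share isolates. The tests therefore measure the spread between cultures. Genotype and passage both differ between the null P3 and wild type P5 groups, so this comparison alone cannot tell their parts apart. In RNA from whole cultures, fewer cells of a type and less RNA per cell cannot be told apart.

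Tgif1 is a homeodomain corepressor that binds Smad2 and Smad3 and limits the transcription of TGFβ target genes, and it also represses retinoid receptors. MEFs in culture have a limited life-span: with passage they slow their division, accumulate the proteins encoded by Cdkn2a and enter senescence. In this stable arrest many cell types secrete cytokines, proteases and growth factor binding proteins. The comparison asks how null cells, which grow poorly at an early passage, differ from wild type cells that have been passaged for longer.

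Tgif1 itself had a log2 signal of 2.48, 3.21 and 2.50 on the 3 null arrays and of 10.06, 10.07 and 10.18 on the 3 P5 arrays. No null array approached a wild type array, and the difference was -7.38 (SE 0.20, adjusted p = 5.43e-05). Where the probes lie relative to the part of the gene that was removed was not examined. The lowest value on the arrays was 2.23, and a gene with 1 group close to it can differ by more than its values show. Fibroblast markers were strongly expressed in both groups, with 14 of 15 above 4 on all null arrays and 15 of 15 on all P5 arrays, including vimentin (Vim) at 15.23, 15.24 and 15.18 in the null and 15.41, 15.26 and 15.33 in P5. The null arrays were less alike than the P5 arrays. Over all member probe-sets, null replicate 1 differed from null replicates 2 and 3 by a mean of 0.233 and 0.295 on the log2 scale, while these 2 differed from each other by 0.156 and the P5 arrays differed among themselves by 0.121 to 0.151. Every null array differed from every P5 array by more, between 0.301 and 0.459.

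Of the 18297 member probe-sets, 3106 (17.0%) passed limma's moderated test between the groups (adjusted p below 0.05), 1572 of them higher and 1534 lower in the null. A difference of at least 1 on the log2 scale, which is 2-fold, was passed by 248 of the higher and 434 of the lower probe-sets. By gene, 1991 of 9951 (20.0%) differed, with 1076 higher (10.8%) and 915 lower (9.2%), and the median difference over all member genes was 0.03. Null and P5 values did not overlap for 5171 of the 9951 member genes, among them all of the 1991. A lack of overlap in a gene that passed the test is therefore no further evidence. A p under 0.0001 with a difference of at least 0.5 was met by 691 probe-sets (3.78%), 293 higher and 398 lower. The total depended on single arrays: it was 1656 without P5 replicate 1, 1595 without P5 replicate 2 and 1915 without null replicate 2, and 2342 without null replicate 1. Most members were measured in both groups, 17470 of them above 4 on all 6 arrays. Another 75 probe-sets were above 4 on the 3 null arrays and on no P5 array, and 121 on the 3 P5 arrays and on no null array.

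**Figure D1:**
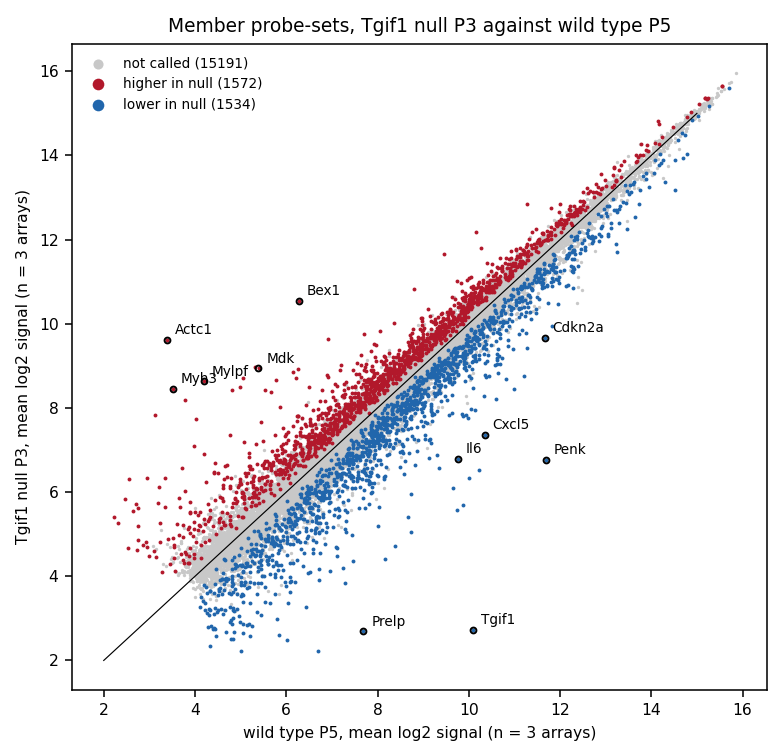
Mean log2 signal of each of the 18297 member probe-sets in wild type P5 (x axis) and Tgif1 null P3 (y axis), each a mean of 3 arrays, with probe-sets that passed the test coloured and the diagonal marking equal signal. Actc1, Myh3, Mylpf, Bex1 and Mdk lie far above the diagonal, and Tgif1, Prelp, Penk, Il6, Cxcl5 and Cdkn2a lie below it.

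The largest differences among genes measured in both groups were chosen for size and for groups that do not overlap, so neither is further evidence. Bex1, an adaptor protein first known from brain, was at 10.49, 10.64 and 10.52 in the null and 6.44, 6.39 and 6.00 in P5, a difference of 4.27 (SE 0.12, adjusted p = 5.43e-05) or 19.3-fold. Mdk, which encodes the heparin-binding growth factor midkine, was at 9.52, 8.85 and 8.45 in the null and 5.46, 5.30 and 5.42 in P5. The Cdk inhibitor gene Cdkn1c and the keratin gene Krt18 were higher in the null by 2.74 and 2.67, and Dusp9, a phosphatase of MAP kinases, and Iqgap2, a scaffold of the actin cytoskeleton, both by 2.89. Levels of Bex1, Mdk, Krt18 and Dusp9 in wild type P3 (means of 10.13, 8.31, 8.91 and 8.41) were close to those of the null.

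Penk, which encodes the opioid precursor proenkephalin, showed the largest decrease among genes measured in both groups, at 6.92, 6.68 and 6.72 in the null and 11.63, 11.68 and 11.75 in P5. The groups lay far apart, and the difference was -4.92 (SE 0.10, adjusted p = 1.68e-05), a 30.2-fold lower signal. Other genes lower in the null were Ccn5, a matricellular protein of the CCN family (-4.18), the water channel gene Aqp1 (-3.57), the immediate early transcription factor Egr3 (-3.67) and the basement membrane protein netrin 4 (Ntn4, -3.26). Ntn4 was at 5.38, 5.44 and 5.37 in the null, whereas wild type P3 (8.56 ± 0.09, SD, n = 3) resembled P5 (8.75, 8.48 and 8.77). Egr3 varied most within a group, at 4.45, 4.75 and 5.98 in the null. Pclaf, a factor bound to the replication clamp, was lower by 3.76 on one probe-set, but its other member probe-set differed by 0.28 and did not pass the test, so no direction is given for the gene.

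Some genes were above 4 in only 1 of the groups. Prelp, a proteoglycan of basement membranes, was at 2.53, 3.01 and 2.54 in the null and 7.63, 7.97 and 7.45 in P5, and Rarres1, a gene induced by retinoic acid, was at the lowest value on all 3 null arrays and at 6.62, 6.82 and 6.62 in P5. Both were equally low in wild type P3 (means of 3.02 and 2.23). The matrix protein gene Abi3bp was also above 4 in P5 only. In the other direction, Atp10d, a phospholipid flippase, was at 5.23, 5.41 and 5.19 in the null and 2.36, 2.23 and 2.36 in P5, with a wild type P3 mean of 2.36. Apart from Atp10d, Tph1 and Bex2, the 10 largest of this kind were genes of the contractile apparatus or its regulation.

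**Figure D2:**
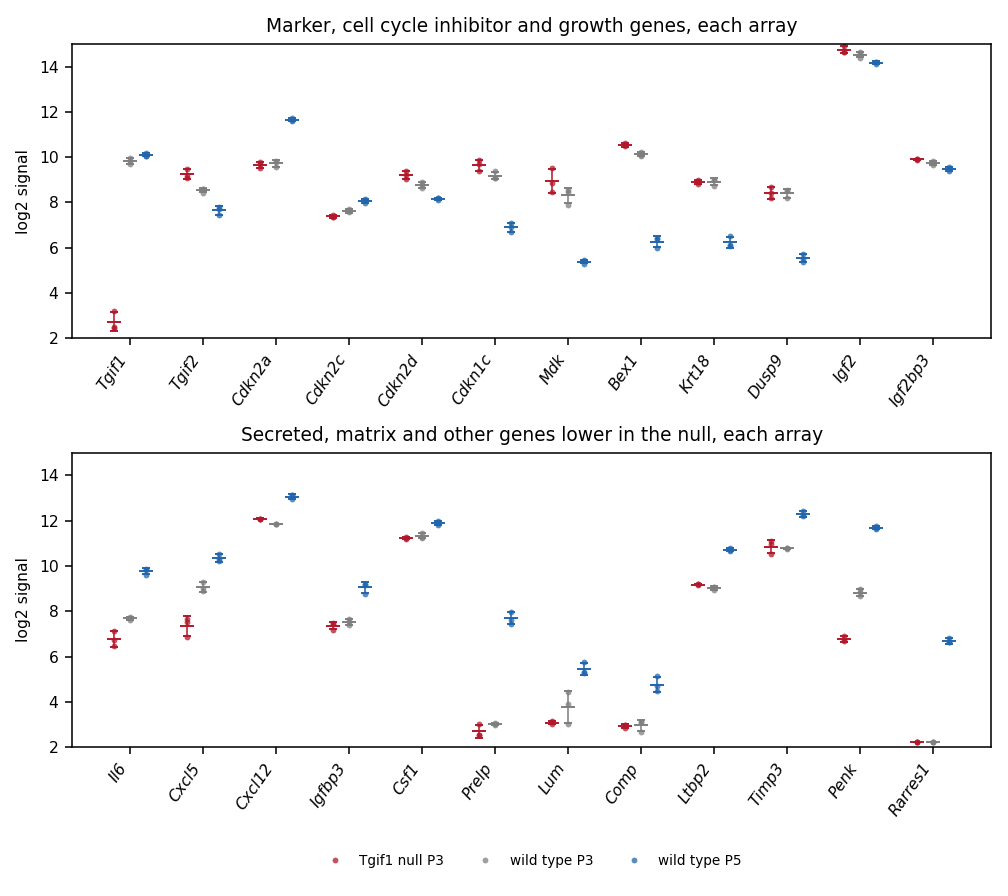
Log2 signal of 24 named genes on each array of Tgif1 null P3, wild type P3 and wild type P5 (points, with the mean and SD of 3 arrays per group). Cdkn2a, Cdkn2c, Il6, Cxcl5, Igfbp3, Prelp, Ltbp2 and Penk are lower in the null than in P5, and Tgif2, Cdkn1c, Mdk, Bex1, Krt18 and Dusp9 are higher.

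Genes of the sarcomere, the contractile unit of striated muscle, differed widely between the null and P5, but did not move as a whole class. Of 49 on the array, 21 were members: 11 were higher, 5 were lower and 5 did not pass, with a median difference of 1.43 against 0.03 over all genes. Of the 21, 6 were above 4 in only 1 of the groups, among them Actc1, Myh3, Tnni1, Tnnt1 and Tnnc2 in the null. The signal filter admitted these through the group where they are high, so the count and the median partly follow from it. Actc1, the actin of cardiac and embryonic skeletal muscle, was at 10.19, 9.41 and 9.26 in the null and 3.26, 3.48 and 3.44 in P5. The P5 signals lay below 4 but above the lowest value of 2.23, so the difference of 6.23 (SE 0.23, adjusted p = 0.000138) may be a lower bound. Wild type P3 lay between, at 7.32 ± 0.01 (SD, n = 3).

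The same order, null above wild type P3 above P5, held for the means of all 11 higher genes. Myh3, the embryonic myosin heavy chain, was at 8.87, 8.15 and 8.34 in the null and 3.50, 3.58 and 3.48 in P5. The myosin light chains Mylpf, Myl1 and Myl4 were higher by 4.43, 4.42 and 3.67. Among the troponins, which place calcium control on the thin filament, Tnni1 was higher by 4.71, Tnnt2 by 3.67, Tnnc1 by 3.51, Tnnt1 by 3.39 and Tnnc2 by 3.36, and desmin (Des), the muscle intermediate filament, by 1.43. Null replicate 1 was the highest null array for each of these genes, as for Tnni1 at 8.59 against 7.29 and 7.62, and all 11 passed the test without it.

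The 5 sarcomere genes that were lower were Acta1, Tpm2, Myom1, Ldb3 and Nebl, named after their values were seen. Acta1, the skeletal muscle actin that fibroblasts also express, was at 10.95, 10.96 and 10.86 in the null and 12.03, 12.18 and 12.32 in P5, a difference of -1.25 (SE 0.08, adjusted p = 0.000888). This count of 5 fell to 2 without null replicate 2 or null replicate 3, and to 3 without null replicate 1 or any single P5 array.

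Of the myogenic regulators and muscle membrane genes, 11 of 35 were members, of which 4 were higher (Myog, Chrna1, Casq2 and Igf2) and 1 was lower (Dysf). Myog, the transcription factor that starts terminal muscle differentiation, was at 6.21, 5.34 and 5.61 in the null and 2.71 on each P5 array, a difference of 3.01 (SE 0.21, adjusted p = 0.000936). The group values did not overlap, and wild type P3 was at 3.54 on each array. Equal values within both wild type groups added next to nothing to the estimated spread, and the call was lost when limma fitted by robust regression. Its relatives Myod1, Myf5 and Myf6, which act upstream of it or in its place, were at or below 4 on all 9 arrays. Smooth muscle and myofibroblast genes did not share one direction: 4 of 19 were higher and 6 were lower, with Rgs5, a pericyte regulator of G protein signalling, higher by 2.50 and the integrin Itga8 lower by 1.29. The 6 fell to 2 without null replicate 2, wild type P3 replicate 1 or any single P5 array, and to 3 without null replicate 3. Smooth muscle actin (Acta2), at 14.95, 14.96 and 14.94 in the null and 15.02, 15.04 and 15.04 in P5, passed the test with a difference of -0.09.

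Promoters of 4 higher muscle genes are printed because these genes moved together and because E-boxes are bound by Myog and its relatives and CArG boxes by serum response factor. The sequences are from RefSeq, the 150 bases before each annotated start, 5′ to 3′ on the strand of the gene, with E-boxes (CANNTG) and the CArG box in capitals. All 4 hold a marked site, but promoters without a site were left out, so this is no evidence about the higher genes. The promoters of Myh3 and Myl4, which were also higher, held no E-box or CArG box in these bases and are not printed. Those of Tnnc1 and Tnnc2, and another, overlapping promoter of Tnni1, held an E-box and are not printed either.
Actc1 (GRCm38.p6, chr2:114052876-114053025, - strand): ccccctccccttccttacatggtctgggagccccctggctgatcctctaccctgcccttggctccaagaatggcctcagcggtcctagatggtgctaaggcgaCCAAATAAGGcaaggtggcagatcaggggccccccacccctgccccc
Mylpf (GRCm38.p6, chr7:127211458-127211607, + strand): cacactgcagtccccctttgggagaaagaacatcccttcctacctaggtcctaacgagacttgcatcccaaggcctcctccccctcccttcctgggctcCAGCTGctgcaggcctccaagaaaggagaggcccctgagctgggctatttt
Tnni1 (GRCm38.p6, chr1:135799271-135799420, + strand): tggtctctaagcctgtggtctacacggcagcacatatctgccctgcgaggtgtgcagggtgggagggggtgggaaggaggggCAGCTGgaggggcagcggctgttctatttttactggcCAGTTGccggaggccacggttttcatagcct
Myog (GRCm38.p6, chr1:134289854-134290003, + strand): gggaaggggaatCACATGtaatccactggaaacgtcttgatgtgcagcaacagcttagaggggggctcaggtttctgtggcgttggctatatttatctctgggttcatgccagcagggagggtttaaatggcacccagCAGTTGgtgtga
Over the 250 bases before the start, on both strands, an E-box was found in 11 of the 13 annotated promoters of the 11 higher sarcomere genes (84.6%) and in 66.2% of all 32851 promoters, so most promoters of any kind hold one. A CArG box was found in 1 of the 13, that of Actc1, and in 1.47% of all promoters. A MEF2 site (YTAWWWWTAR), also searched for, was found in 0 of the 13 and in 2.92% of all promoters. No binding was measured here.

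**Figure D3:**
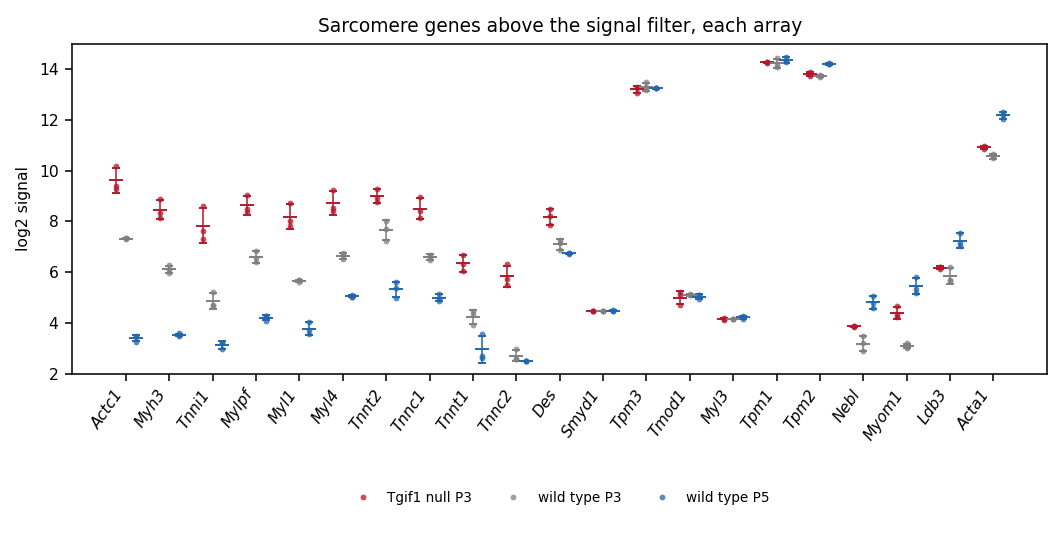
Log2 signal of the 21 sarcomere genes above the signal filter, on each array of the 3 groups (points, with the mean and SD of 3 arrays per group), ordered by the difference between null and P5. The 11 genes at the left are higher in the null with no overlap between null and P5, and Acta1 at the right is the gene with the largest decrease.

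The inhibitors of the cell cycle did not move as a class. Of 20 Cdk inhibitor and senescence genes, 5 were higher (25.0%), 4 were lower (20.0%) and 11 did not pass, with a median of 0.04. Over all member genes, 10.8% were higher and 9.2% were lower. Cdkn2a, whose reading frames encode p16INK4a and p19ARF, was at 9.53, 9.68 and 9.80 in the null and 11.66, 11.71 and 11.61 in P5. Every null array lay below every P5 array, and the difference was -1.99 (SE 0.09, adjusted p = 0.000319), a 3.97-fold lower signal. The 3 wild type P3 arrays (9.73 ± 0.15, SD, n = 3) overlapped with the null, and 1 probe-set cannot separate both products of the gene.

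Of the other inhibitors, Cdkn2c (p18) was lower by 0.69, at 7.37, 7.47 and 7.34 in the null and 8.16, 8.10 and 7.99 in P5. Cdkn2d (p19INK4d) was higher by 1.05, at 9.38, 9.23 and 9.05 against 8.21, 8.12 and 8.18. Cdkn1c (p57), an imprinted gene, was at 9.38, 9.68 and 9.87 in the null and 6.92, 7.10 and 6.71 in P5. Neither Cdkn1a (p21; 13.15, 12.97 and 12.88 against 12.88, 12.91 and 12.91) nor Cdkn2b (p15; 11.65, 11.49 and 11.39 against 11.65, 11.69 and 11.61) passed the test. Glb1, which encodes lysosomal β-galactosidase, was lower by 0.66 in the null, while lamin B1 (Lmnb1), whose loss accompanies senescence, was higher by 0.76 and the Polycomb methyltransferase Ezh2 by 0.54. Of 29 p53 target genes, 1 was higher and 5 were lower, and the 5 fell to 1 without P5 replicate 1 or P5 replicate 2. The p53 list shares were 3.45% and 17.2%, against 10.8% and 9.2% over all member genes.

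In both lists of cell division genes, members passed the test as higher in the null and none as lower. Of 42 DNA replication genes, 22 were higher and 20 did not pass, with a median of 0.49, and of 53 mitosis genes, 30 were higher and 23 did not pass, with a median of 0.45. Lower in the null were 0 replication genes and 1 mitosis gene at limma's unadjusted p under 0.05, and the counts by adjusted p were also 0 and 1 when limma fitted by robust regression. When a gene's probe-sets were averaged, 1 replication gene was lower. Most differences were small: 1 of the 22 and 0 of the 30 reached 1 on the log2 scale. Orc6, a subunit of the origin recognition complex, was at 10.12, 10.06 and 10.01 in the null and 9.39, 9.42 and 9.45 in P5. Mcm5, of the replicative helicase, was at 11.23, 11.17 and 11.19 against 10.56, 10.59 and 10.63, and Rrm1, which makes deoxyribonucleotides, was higher by 0.52. As for every gene that passed the test, the groups did not overlap for any of these genes. The wild type P3 mean lay above the null mean for 21 of the 22 replication and 28 of the 30 mitosis genes.

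Among mitosis genes, the condensin subunit Ncapd2 was higher by 0.90, the spindle protein Hmmr by 0.82, the kinetochore protein Cenpf by 0.59, the chromosomal passenger Cdca8 by 0.48 and Cdc20, the activator of the anaphase-promoting complex, by 0.34. Cenpf was at 8.55 on all 3 null arrays: such triplets, equal within 0.001, occurred in the null or in P5 for 570 member probe-sets, 37 of which passed the test. The summed linear signal of the mitosis list was 59300 to 60200 on the null arrays, 45500 to 47300 on the P5 arrays and 73600 to 75500 on the wild type P3 arrays. The null thus lay between both wild type groups, with no overlap. The mitosis count fell to 17 without null replicate 2, 18 without P5 replicate 1 and 16 without P5 replicate 2, and to 7 when limma's prior was fitted against mean signal and made robust, a setting that took the replication count from 22 to 12.

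More secreted inflammatory factors were lower in the null than were higher, and most did not pass. Of 30 members, 11 were lower, 2 were higher and 17 did not pass, with a median of -0.39. Il6, the cytokine most often measured in senescent cultures, was at 6.47, 6.72 and 7.14 in the null and 9.85, 9.83 and 9.61 in P5. The groups did not overlap, and the difference of -2.99 (SE 0.17, adjusted p = 0.000581) is a 7.94-fold lower signal. Wild type P3 was at 7.69 ± 0.07 (SD, n = 3), above all null arrays and below all P5 arrays.

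The neutrophil chemokine Cxcl5 followed the same order, at 6.86, 7.66 and 7.54 in the null and 10.52, 10.20 and 10.32 in P5, with a wild type P3 mean of 9.07. The related chemokine Cxcl1 (-2.19) and the EGF receptor ligand Ereg (-2.13) were also lower, with null replicate 1 the lowest array for both (7.10 and 7.76). Cxcl12, which attracts cells that carry Cxcr4, was at 12.05, 12.09 and 12.09 in the null and 12.95, 13.12 and 13.11 in P5, and the macrophage growth factor Csf1 was lower by 0.66. Among the IGF binding proteins, Igfbp3 (-1.68), Igfbp2 (-1.38), Igfbp4 (-0.78) and Igfbp6 (-0.74) were lower. The 2 members higher in the null were Igfbp5 (1.55) and the epithelial cytokine gene Tslp, at 6.45, 6.19 and 6.19 against 5.37, 5.06 and 5.39. The chemokine Ccl2 had null values of 10.85, 10.38 and 10.32 against 10.28, 10.14 and 10.17 and did not pass. The count of 11 lower genes fell to 6 without P5 replicate 1 and to 5 without P5 replicate 2, and Il1a, Il1b and Tnf were among 12 listed factors at or below 4 on all 9 arrays.

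The promoters of Il6 and Cxcl1 are shown because NF-kB sites in them are known to respond to inflammatory signals. They are again the 150 bases before the RefSeq start, with NF-kB sites in capitals.
Il6 (GRCm38.p6, chr5:30012964-30013113, + strand): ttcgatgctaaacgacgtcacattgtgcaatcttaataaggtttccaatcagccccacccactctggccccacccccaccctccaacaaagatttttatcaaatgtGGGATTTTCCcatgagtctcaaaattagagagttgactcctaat
Cxcl1 (GRCm38.p6, chr5:90891095-90891244, + strand): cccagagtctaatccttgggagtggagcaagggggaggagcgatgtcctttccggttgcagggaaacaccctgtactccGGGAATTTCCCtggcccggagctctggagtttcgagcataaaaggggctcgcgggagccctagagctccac
Over 250 bases and both strands, an NF-kB site was found in 3 of 10 annotated promoters of 9 of the 11 lower factors (30.0%), against 7.25% of all promoters, and an AP-1 site (TGANTCA) in 2 of 10 (20.0%) against 6.75%. The higher sarcomere genes held an NF-kB site in 3 of 13 promoters (23.1%), so the site is not particular to the lower factors. They held an AP-1 site in 0 of 13. The 2 NF-kB matches in Cxcl1 overlap, and these few promoters were not tested against the rest.

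In the extracellular matrix lists, too, more members were lower in the null than were higher. Of 41 matrix glycoproteins and proteoglycans, 18 were lower, 0 were higher and 23 did not pass, with a median of -0.41 (5 higher at limma's unadjusted p under 0.05, and 3 higher by adjusted p with robust regression). The small leucine-rich proteoglycans, which bind collagen fibrils, included fibromodulin (Fmod, -2.23), lumican (Lum, -2.35), osteomodulin (Omd, -1.61), osteoglycin (Ogn, -1.01) and decorin (Dcn, -0.65). Lum was at 3.00, 3.12 and 3.14 in the null, all below 4, and at 5.26, 5.75 and 5.31 in P5. Smoc1 (-1.62) and Emilin2 (-1.31) also lay below P5 on every null array. Fibronectin (Fn1), at 14.42, 14.31 and 14.34 against 14.53, 14.56 and 14.67, was lower by 0.23, a call lost under 11 of 16 alternatives, among them the removal of any array other than null replicate 1 (highest adjusted p = 0.173).

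Of 21 collagen genes, 7 were lower (33.3%) and 3 were higher (14.3%), with a median of -0.17. Over all member genes, 9.2% were lower and 10.8% were higher. Col8a1 (-0.73), Col12a1 (-0.78) and Col6a3 (-0.56) were among the lower, and Col27a1 (1.19), Col4a1 (0.35) and Col7a1 (0.98) were higher. Col1a1, the main fibrillar collagen chain, was at 13.49, 12.49 and 12.50 in the null and 12.62, 12.65 and 13.05 in P5 and did not pass. Of 32 matrix proteases and their inhibitors, 10 were lower, including the membrane protease Mmp16 (-1.45), Adamts5 (-1.49), which cleaves aggrecan, and the inhibitor Timp3 (-1.43), and only Ctss, a cysteine protease of macrophages, was higher, at 6.57, 5.87 and 6.31 against 4.22, 4.39 and 4.13. The matrix count of 18 fell to 10 without P5 replicate 2. The collagen count of 7 fell to 2 or 3 when any array other than null replicate 1 was left out. The 3 higher collagens fell to 0 or 1 when any array other than P5 replicate 3 was left out, and the protease count of 10 to 6 without null replicate 3, P5 replicate 1 or P5 replicate 3.

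Targets of TGFβ were tested because Tgif1 limits their transcription. Of 37, 12 were lower, 1 was higher (Col4a1) and 24 did not pass, with a median of -0.11, and one of the 12 was Tgif1 itself. Ltbp2, a latent TGFβ binding protein of elastic fibres, was at 9.19, 9.19 and 9.15 in the null and 10.70, 10.65 and 10.80 in P5, a difference of -1.54 (SE 0.05, adjusted p = 0.000102). Id1, an inhibitor of bHLH factors (-1.35), Junb (-0.96) and the inhibitory Smad gene Smad6 (-0.90) were lower too. Ltbp2 in wild type P3 (9.02 ± 0.08, SD, n = 3) was near the null level. The targets Ccn2 (14.72, 14.75 and 14.87 against 14.70, 14.69 and 14.85), Smad7 and Cdkn2b did not pass the test. The count of 12 fell to 6 without P5 replicate 1 or P5 replicate 2.

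Of 42 genes of the TGFβ and BMP pathway, 8 were lower, Tgif1 itself included, and 4 were higher. The 8 fell to 4 without P5 replicate 1 and 5 without P5 replicate 2, and the 4 to 2 without null replicate 2 or null replicate 3. Tgif2, the paralog of Tgif1, was at 9.50, 9.07 and 9.18 in the null and 7.44, 7.71 and 7.79 in P5, a difference of 1.61 (SE 0.14, adjusted p = 0.00208) or 3.04-fold, with wild type P3 between at 8.55 ± 0.10 (SD, n = 3). The other 3 higher genes were the activin receptor gene Acvr1b (0.40), Smad5 (0.23) and the procollagen protease gene Bmp1 (0.85). The activin antagonist Fst (-0.89) and Ltbp3 (-0.69) were among the lower.

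**Figure D4:**
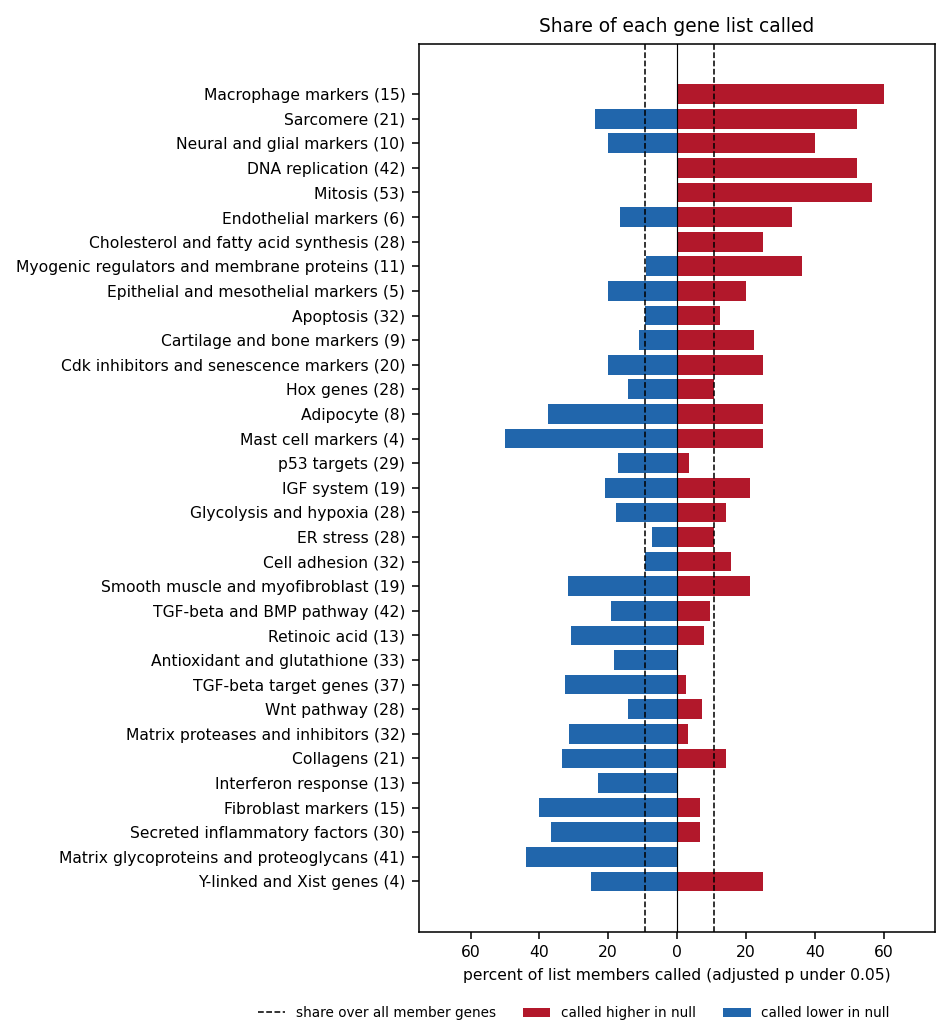
Percent of the members of each of 33 gene lists that were higher (red, to the right) or lower (blue, to the left) in the null, with the number of members in brackets and the lists ordered by their median difference. Dashed lines mark the shares over all member genes, 10.8% higher and 9.2% lower; macrophage, sarcomere, replication and mitosis genes extend furthest to the right.

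Lipid, stress and patterning genes showed smaller sets of calls. Of 28 cholesterol and fatty acid synthesis genes, 7 were higher (25.0%, against 10.8% over all member genes) and 0 were lower, with a median of 0.30. At limma's unadjusted p under 0.05, 1 was lower, and 1 was lower by adjusted p with robust regression. The higher genes included fatty acid synthase (Fasn, 0.60), lanosterol synthase (Lss, 0.87), Elovl6 (0.63) and Acaca (0.58). Of 33 antioxidant and glutathione genes, 6 were lower (18.2%, against 9.2% over all member genes) and 0 were higher. At limma's unadjusted p under 0.05, 4 were higher, and 3 were higher by adjusted p with robust regression. Heme oxygenase (Hmox1), which degrades heme, was at 9.92, 10.04 and 9.89 in the null and 10.91, 10.83 and 10.90 in P5, and Gstm2, a glutathione transferase, was lower by 1.21. Of 28 Wnt pathway genes, 4 were lower (14.3%, against 9.2% over all member genes) and 2 were higher (7.14%, against 10.8%). The lower genes were led by the Wnt agonist Rspo2, at 8.11, 8.65 and 8.60 against 11.04, 10.97 and 10.93, and the antagonist Sfrp1 (-1.83), while Sfrp2 was higher by 1.36. The antioxidant count was 3 without null replicate 1, P5 replicate 1 or P5 replicate 2, and 9 without P5 replicate 3.

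Retinoic acid genes held 4 lower members of 13, including Rarres1, the reductase gene Dhrs3 (-1.39), the binding protein gene Crabp2 (-1.29) and the receptor Rxra (-0.41), and 1 higher, Rxrb (0.27). Of 19 genes of the IGF system, 4 were higher and 4 were lower. Igf2, a fetal growth factor, was at 14.91, 14.66 and 14.65 in the null and 14.09, 14.21 and 14.21 in P5, and the RNA binding proteins Igf2bp1 and Igf2bp3 were higher by 1.02 and 0.43. Of 28 Hox and related genes, 3 were higher and 4 were lower, including Hoxd13 (-0.80) and Hoxc8 (-0.84). In the adhesion list, 5 of 32 were higher and 3 were lower, and in the interferon list 3 of 13 were lower, among them the class I genes H2-K1 (-0.81) and H2-D1 (-0.88). Calls in glycolysis and hypoxia (4 higher, 5 lower of 28), ER stress (3 higher, 2 lower of 28), apoptosis (4 higher, 3 lower of 32) and adipocyte genes (2 higher, 3 lower of 8) ran in both directions. Higher and lower shares were 14.3% and 17.9% for glycolysis and hypoxia, 10.7% and 7.14% for ER stress and 12.5% and 9.38% for apoptosis. They were 15.6% and 9.38% for adhesion and 10.7% and 14.3% for Hox genes. For retinoic acid genes they were 7.69% and 30.8%, for the IGF system 21.1% and 21.1%, and for interferon genes 0.0% and 23.1%. Over all member genes they were 10.8% and 9.2%. Counts near those shares are not read as results about a list. Some counts of these lists moved by over 1.5 times when single arrays were left out. Of the 4 lower IGF genes, 1 passed without null replicate 2, null replicate 3, P5 replicate 1 or P5 replicate 2.

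Among the lists of markers of other cell types, only the macrophage list had calls in a single direction. Of 39 macrophage markers on the array, 15 were members, of which 9 were higher in the null, 0 were lower and 6 did not pass, with a median of 1.51. The signal filter admitted some of them through the null group: 15 were above 4 on all null arrays and 9 on all P5 arrays. The count and the median partly follow from that filter. At limma's unadjusted p under 0.05, and by adjusted p with robust regression, again 0 were lower. Lysozyme (Lyz2) was at 9.40, 8.94 and 8.97 in the null and 8.01, 8.11 and 7.78 in P5, and Coro1a, a leukocyte actin regulator, at 7.21, 6.81 and 6.68 against 3.97, 3.95 and 4.66. Csf1r, the receptor for Csf1, was higher by 1.66 and C1qa, of complement, by 1.90. The summed linear signal of the 39 markers was 3090, 2240 and 2370 on the null arrays, 1510 to 1580 in wild type P3 and 1070 to 1220 in P5. The defining markers Ptprc, Adgre1, Itgam and Aif1 were among 18 at or below 4 on all 9 arrays, and the macrophage part in any other result was not tested. The count of 9 fell to 5 without P5 replicate 1 or P5 replicate 2, and was 8 without null replicate 1.

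**Figure D5:**
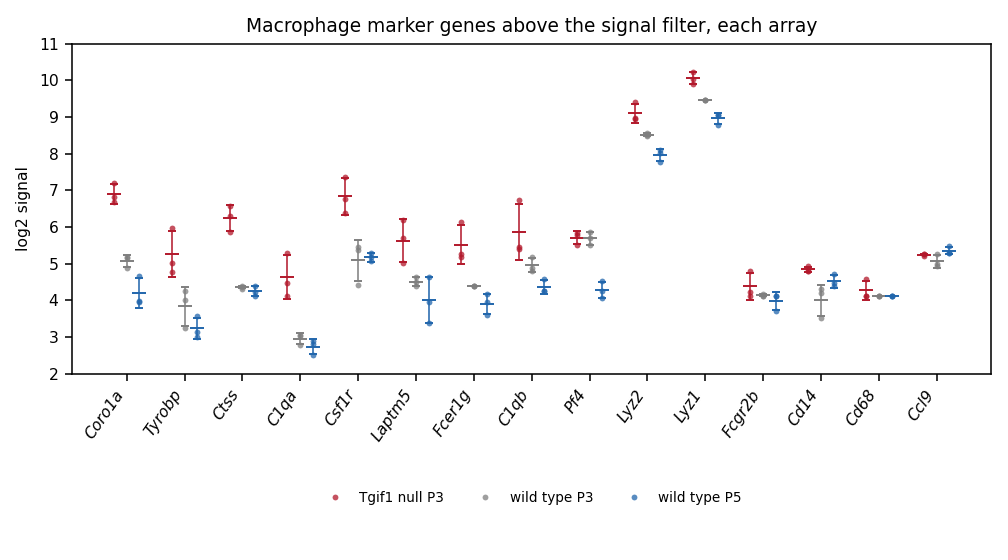
Log2 signal of the 15 macrophage markers above the signal filter, on each array of the 3 groups (points, with the mean and SD of 3 arrays per group), ordered by the difference between null and P5. Coro1a, Ctss, Lyz1, Lyz2 and Pf4 are higher in the null with no overlap with P5.

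Of 9 cartilage and bone markers, 2 were higher, 1 was lower and 6 did not pass. Col2a1, the cartilage collagen, was at 11.98, 11.55 and 11.44 in the null and 9.22, 9.33 and 9.80 in P5, and the lubricant Prg4 was higher by 1.90, while Comp was lower by 1.84. Col11a1, another cartilage collagen (-0.49), and the cartilage regulator Sox9 (-0.20) did not pass. Neural and glial markers had 4 higher and 2 lower of 10: Gap43, of growing axons, was higher by 1.61, and the microtubule genes Stmn2 (-1.57) and Map2 (-1.48) were lower. Endothelial markers had 2 higher and 1 lower of 6, epithelial and mesothelial markers 1 higher (Krt18) and 1 lower (Msln) of 5, and mast cell markers 1 higher (Tph1) and 2 lower (Mcpt8 and Gata2) of 4. The 2 endothelial calls fell to 0 without null replicate 2, wild type P3 replicate 1 or 3, or P5 replicate 1 or 2, and those of Msln and Gata2 were each lost under 10 of 16 alternatives. Fibroblast markers had 1 higher and 6 lower of 15, led by S100a4, at 13.99, 14.10 and 14.04 against 14.76, 14.83 and 14.74. Their summed linear signal was 128000 to 140000 on the null arrays and 157000 to 165000 on the P5 arrays, and its part in other results was not tested. The count of 6 lower fibroblast markers was between 1 and 5 with any 1 array left out, and lowest without P5 replicate 2.

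Xist, which is expressed from an inactive X chromosome, was above 4 on every array, as were the Y-linked genes Kdm5d and Eif2s3y, while the Y-linked Uty was at 3.78, 3.92 and 4.20 in the null and 4.73, 4.38 and 4.42 in P5. Xist was at 11.17, 10.92 and 10.85 in the null and 9.62, 9.50 and 10.38 in P5, a difference of 1.15 (SE 0.25, adjusted p = 0.0469) that 11 alternatives lost. Kdm5d was lower, at 5.51, 5.64 and 5.99 against 6.24, 6.26 and 6.22 (adjusted p = 0.047), a call that 11 alternatives also lost. Eif2s3y, at 7.86, 8.64 and 8.81 against 9.38, 9.31 and 9.35, and Uty did not pass, and the part of sex in other results was not tested.

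Genes beside Tgif1 were examined because the background is mixed and the allele is linked to them. Of the 100 genes on the array nearest to Tgif1 on chromosome 17, 50 on each side, 65 were members, and 5 were higher and 6 lower in the null (16.9% called, against 20.0% over all member genes). Their median difference was -0.03. Among 9 of the genes chosen for PCR in the study, P3h2 (1.12), the scavenger receptor Olr1 (2.16), Bub1b (0.59) and Cdc45 (0.58) were higher and Enpep (-1.32) was lower in the null, whereas Fas, at 7.05, 7.34 and 7.55 against 7.09, 7.26 and 7.05, Cflar, Plk4 and Pole did not pass. The study measured other genes by PCR too, and Loxl2 is left out because no probe-set was assigned to it alone here. The call of Cdc45 was lost under 11 of 16 alternatives, among them the removal of any array other than P5 replicate 3, and that of Bub1b under 7, among them the removal of null replicate 2 or any P5 array.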

How the data were processed

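Expression was measured on 9 Affymetrix arrays, 1 per culture, and the 6 arrays of the Tgif1 null P3 and wild type P5 groups are compared. The values that the authors deposited are log2 signals from GCRMA, a method that models probe background by sequence, equalises array distributions and combines probes. The submitters' processing notes name GCRMA and limma, with their versions not given in the sources used here. No further scaling was applied, and the number of arrays limits precision.

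Group means of the 3 groups were fitted to 9 arrays with limma 3.58.1 in R 4.3.3 (lmFit and eBayes at defaults), and Benjamini-Hochberg adjustment covered the 45101 probe-sets of the array. A gene is represented by its probe-set with the highest mean signal. One symbol was found for 34754 probe-sets, several genes for 932, and 9415 were not named here. The members, the 33 gene lists and the tests were chosen with earlier results of these data known. Named genes are 4 markers, the 10 largest differences in each direction and kind, at most 5 members of a list by smallest p, 9 of the genes the study measured by PCR and called genes nearest to Tgif1. Others, named for small counts or as list members, were chosen after their values were seen. With 3 arrays against 3, an exact permutation test cannot give a p below 0.1. The fit was tested on simulated data with known differences. Promoters are from RefSeq, build GRCm38.p6. Alternatives tried were other fits, priors, scalings, filters and thresholds, a replicate block and each array left out.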

Additional observations from a re-analysis of the deposited data

How the results depend on the processing

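The direction of every named difference that passed the test was kept under all alternatives, and none of the 3106 called probe-sets changed sign under any refit. This is no further evidence of direction. Several refits change only the spread and not the difference itself, and groups that do not overlap keep their order when 1 array is left out. The number of calls was not stable. It was 1946 (972 higher, 974 lower) with the 6 arrays fitted alone, 5239 (2673 higher, 2566 lower) with the members alone in the fit, 1009 (416 higher, 593 lower) with a trended robust prior and 7289 (3763 higher, 3526 lower) with robust regression. At a p under 0.0001 and a difference of 0.5 it was 691 (293 higher, 398 lower), at a p under 0.001 and 0.5 it was 1440 (645 higher, 795 lower), and with the adjusted p and a difference of 1 it was 682 (248 higher, 434 lower). Leaving out each array in turn gave 1595 to 3221 calls (799 to 1695 higher, 796 to 1526 lower), lowest without P5 replicate 2. Quantile normalization, median centring and other signal filters stayed within 1.5 times of the main counts. Of the refits of single named genes, 2781 kept their side of the threshold, 371 lost a call and 16 gained one. Of 16 alternatives, 10 ended the call of Col27a1 and of Col4a1, 8 that of Col6a3 and of Rxra, 7 that of Igfbp2 and of Myom1 and 5 that of Igf2.

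With the replicate number as a block, 1691 probe-sets were called (865 higher, 826 lower). The numbers share no stated source: deviations of same-numbered null and P5 arrays correlated at -0.20, 0.09 and -0.16, so the block is not taken as a pairing. The prior for the spread had 0.345 degrees of freedom, and 2.40 with the members alone. Genes near the lowest value of 2.23 have differences that may be lower bounds.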
